A study of Arabidopsis thaliana with 4 samples.

Results

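Jasmonates are lipid hormones that plants make from linolenic acid of plastid membranes. The 10 genes described here belong to their synthesis and signalling in Arabidopsis thaliana and were chosen by locus from the literature of the pathway. Earlier results of these data were known when that choice was made. All 10 were found among the 26784 genes of the deposited table. They are LOX2, LOX3, AOC1, AOC2, OPR3 and JAR1 for synthesis and COI1, MYC2, JAZ1 and JAZ3 for perception and response. Messenger RNA had been sequenced from whole wild-type Col-0 seedlings at 2 and 6 days post germination (dpg), with 2 libraries at each age and 4 in all. Seeds of both ages were kept cold and dark before germination and all seedlings grew on MS medium with 0.5% sucrose, under days of 12 h of light at 22 °C, and no mutant or treatment was part of the design. The series compares the ages to find transcription factor genes that differ during early growth. Chromosome 5 beyond position 3070933 was not analysed here, which leaves out 12 loci of the pathway list used below, among them the allene oxide synthase gene AOS, the repressor genes JAZ10 and JAZ12, the MYC3 and MYC5 genes and the storage protein response genes VSP1 and VSP2.

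In the plastid, 13-lipoxygenases (LOX) oxidise linolenic acid, and allene oxide synthase and the allene oxide cyclases (AOC) turn the product into 12-oxo-phytodienoic acid (OPDA). In the peroxisome the OPDA reductase OPR3 and rounds of beta-oxidation make jasmonic acid, which JAR1 joins to isoleucine to give the active hormone. The hormone brings together the F-box protein COI1 and the JAZ repressors. The JAZ proteins are then degraded, and bHLH activators such as MYC2 are released. In seedlings the hormone is known for wound and herbivore defence and for restraint of root growth.

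AOC1 and AOC2 are neighbouring copies on chromosome 3 of which AOC2 fell and AOC1 was not called, so their sequences are shown first. The table places AOC1 at chr3:9403883-9405250 and AOC2 at chr3:9406873-9407955, both on the plus strand. AOC3 follows them and AOC4 lies on chromosome 1. The stretches below are the 90 coding bases, unbroken in all 4 genes, in which AOC1 and AOC2 differ most, read from the TAIR10.1 genome. They lie at chr3:9405010-9405099, chr3:9407744-9407833, chr3:9410314-9410403 and chr1:4548457-4548546, all on the plus strand. Capitals in AOC1, AOC3 and AOC4 mark bases that differ from AOC2, and capitals in AOC2 mark bases that differ from AOC1.
AOC1: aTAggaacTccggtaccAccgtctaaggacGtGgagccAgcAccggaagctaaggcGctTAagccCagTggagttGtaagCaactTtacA
AOC2: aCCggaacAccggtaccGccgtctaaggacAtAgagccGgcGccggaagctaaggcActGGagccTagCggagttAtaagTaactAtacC
AOC3: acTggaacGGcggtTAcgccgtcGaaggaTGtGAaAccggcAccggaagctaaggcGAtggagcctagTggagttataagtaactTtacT
AOC4: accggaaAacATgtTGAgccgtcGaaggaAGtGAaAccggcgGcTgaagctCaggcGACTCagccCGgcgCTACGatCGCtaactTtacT
In this window AOC1 and AOC3 each differ from AOC2 at 17 positions and AOC4 at 32. Over the whole coding sequence, AOC1 and AOC2 were 90.3% identical, AOC3 and AOC2 82.2%, and AOC4 and AOC2 69.2%. The longest run shared by the AOC1 and AOC2 transcripts was 47 bases, and no stretch of 50 bases of AOC2 was found whole in AOC1. The AOC3 transcript shared a longer run with each, of 73 bases with AOC1 and of 50 bases with AOC2. The read length is not given in the sources used here, and reads that match more than 1 copy can be split or lost.

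The upstream sequences of the same copies are shown because AOC2 was called and AOC1 was not. Each is the 250 bases before the annotated gene start in RefSeq (TAIR10.1), at chr3:9403529-9403778 and chr3:9406419-9406668 on the plus strand. Capitals mark a match to one of the motifs searched on both strands, the G-box CACGTG and the related AACGTG, to which MYC2 is known to bind.
AOC1 upstream: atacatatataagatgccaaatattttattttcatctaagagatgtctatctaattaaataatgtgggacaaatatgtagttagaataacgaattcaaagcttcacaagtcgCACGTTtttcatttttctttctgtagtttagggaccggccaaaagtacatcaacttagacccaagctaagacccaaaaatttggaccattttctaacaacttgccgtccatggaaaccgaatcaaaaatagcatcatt
AOC2 upstream: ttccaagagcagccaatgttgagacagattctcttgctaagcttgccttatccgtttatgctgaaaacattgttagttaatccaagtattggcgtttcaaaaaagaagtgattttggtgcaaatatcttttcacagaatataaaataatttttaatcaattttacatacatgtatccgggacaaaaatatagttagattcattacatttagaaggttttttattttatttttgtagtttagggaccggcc
AOC1 has 1 AACGTG match, on the opposite strand, starting 138 bases before the gene start. AOC2 has neither motif in its window. The last bases of the AOC2 window recur inside the AOC1 window, so the 2 windows do not cover matching stretches. Both genes also start further on in the deposited table than in RefSeq. The motif content of the 2 copies is therefore not compared like for like. Among the other members MYC2 has 1 AACGTG match, and JAZ3 has 2 G-boxes and 1 AACGTG match. So 3 of 10 member windows hold a motif, and 13.3% of the 27443 windows of coding genes do (6.5% the G-box, 7.5% AACGTG). These matches describe the letters of the window and say nothing of binding.

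Levels within a gene are given below in CPM, read counts scaled to the library total with TMM, as mean ± SD with n = 2 libraries at each age. Fold changes compare 6 dpg with 2 dpg, as log2 values with a standard error (SE), and a gene is called at an edgeR quasi-likelihood adjusted p (Benjamini-Hochberg over 16160 tested genes) under 0.05. All 10 members passed the filter on low counts. Of these, 3 fell, none rose and 7 were not called, and their median log2 fold change was 0.05. Across all tested genes 56.6% were called, 28.3% higher and 28.4% lower, and the median was -0.0011.  The libraries of the ages did not overlap for 4 of the 10 members, against 80.6% of all tested genes. The members' count under DESeq2 was also 3 lower and 0 higher, where 47.7% of all genes were called. Each direction is set against the other genes of the table: scaling on 168 ribosomal protein genes moved the median over all tested genes by 0.32 on the log2 scale and gave 5676 higher and 2129 lower calls in place of 4568 and 4585.

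**Figure D1:**
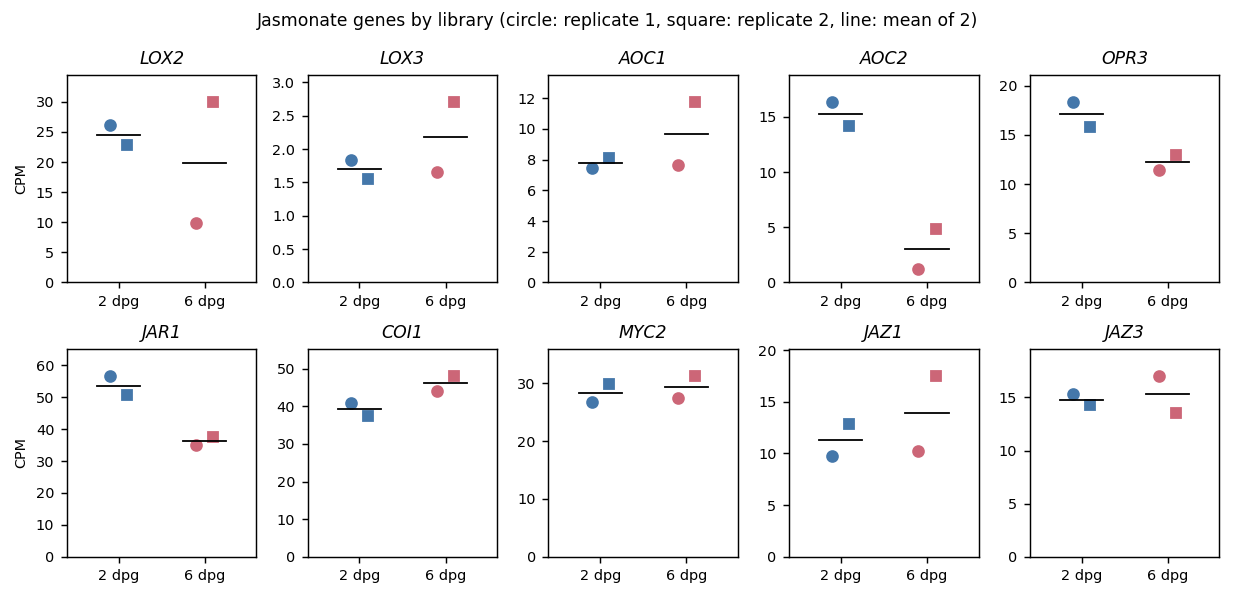
CPM of the 10 jasmonate genes in each library (circles replicate 1, squares replicate 2) at 2 and 6 dpg, with lines at the mean of 2 libraries. AOC2, OPR3 and JAR1 are lower in both 6 dpg libraries, COI1 is slightly higher in both, and LOX2 at 6 dpg has 1 library below and 1 above both 2 dpg libraries.

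The libraries held 18330153 to 26570983 reads by totals recovered from the deposited values. Whether the replicates were grown as separate plantings is not in the labels. The p-values therefore refer to the variation among these 4 libraries alone, part or all of which may be technical. The labels give no hour of harvest, so for genes with a daily rhythm age and harvest time cannot be told apart. In whole seedlings, fewer cells of a type and less RNA per cell cannot be told apart either. The 4 green tissue markers summed to 32230 and 33330 CPM at 2 dpg and 18630 and 19670 at 6 dpg, with 3 of 4 lower. The 5 root markers summed to 184 and 236 CPM at 2 dpg and 42.9 and 51.5 at 6 dpg, with all 5 lower. The 4 seed reserve markers stood at 5 and 104 reads at 2 dpg and 0 and 3 at 6 dpg, and the 3 flower markers at 4 to 7 reads per library. Their part in the results below was not tested.

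The first steps of synthesis are catalysed by the 13-lipoxygenases, of which LOX2 (AT3G45140, chr3:16525410-16529352) is the main leaf enzyme of the wound response. LOX2 stood at 26.2 and 22.8 CPM in 2 dpg replicates 1 and 2 and at 9.82 and 30.0 CPM in 6 dpg replicates 1 and 2. The 6 dpg libraries thus lay on either side of both 2 dpg libraries. The difference was not called (log2 fold change -0.31 ± 0.39, 95% interval -1.20 to 0.57, edgeR adjusted p = 0.515). It hangs on the 6 dpg library kept: without 6 dpg replicate 2 LOX2 was called lower, at -1.32, and without 6 dpg replicate 1 the value was 0.29 and not called. LOX3 (AT1G17420, chr1:5977411-5981480), which acts in stamens and in wounded leaves, was the least expressed member. It had 45 and 31 reads at 2 dpg and 40 and 53 at 6 dpg, or 1.84, 1.56, 1.66 and 2.71 CPM. Its ages overlapped and its log2 fold change of 0.34 ± 0.32 was not called (edgeR adjusted p = 0.382).

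LOX3 has a close relative in LOX4, with 80.1% of coding bases the same and no shared run over 24 bases. LOX4 rose, from 13 and 9 reads at 2 dpg to 66 and 95 reads at 6 dpg. That is 0.492 ± 0.0567 CPM at 2 dpg and 3.80 ± 1.5 CPM at 6 dpg, a log2 fold change of 2.93 ± 0.39 (edgeR adjusted p = 0.000326). LOX6, the fourth gene of the class, stood level at 30.8 ± 0.325 and 30.6 ± 1.61 CPM and was not called, except as lower with length-adjusted offsets, at -0.31. Upstream of the lipoxygenases, the plastid desaturase gene FAD7, which makes linolenic acid, rose from 191 ± 8.06 to 354 ± 27.9 CPM. FAD3 and FAD8 were not called, although FAD3 was called higher without 2 dpg replicate 1, at 0.35, and under ribosomal protein scaling, at 0.55. The lipase genes of the anther, DAD1, and of the leaf, DGL, had 2 reads and no read over all 4 libraries.

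The largest fall among the members was that of an allene oxide cyclase gene, AOC2 (AT3G25770). AOC2 stood at 16.4 and 14.2 CPM in the 2 dpg libraries and at 1.21 and 4.86 CPM in the 6 dpg libraries. These are 400 and 283 reads against 29 and 95. Both 6 dpg libraries lay under both 2 dpg libraries, but they also differed from each other 3.98-fold. AOC2 fell by 2.39 ± 0.43 on the log2 scale (edgeR adjusted p = 0.0015), to a level 5.23-fold lower. The size depends on the library kept, from 3.15-fold without 6 dpg replicate 1 to 12.7-fold without 6 dpg replicate 2, and AOC2 stayed called in all 12 alternative settings. The neighbouring copy AOC1 (AT3G25760) stood at 7.46 and 8.09 CPM at 2 dpg and at 7.62 and 11.8 CPM at 6 dpg. Its ages overlapped, and its log2 fold change of 0.31 ± 0.21 was not called (edgeR adjusted p = 0.241; 95% interval -0.17 to 0.80). Without 6 dpg replicate 1 it was called higher, at 0.60.

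Per length, the ratio of AOC1 to AOC2 was 0.446 and 0.558 in the 2 dpg libraries and 6.19 and 2.38 in the 6 dpg libraries. AOC2 was the more abundant copy in both young libraries and AOC1 in both older ones. The mean log2 ratio was higher by 2.94 at 6 dpg. A two-sided exact permutation test gave p = 0.333, the smallest that 2 against 2 libraries allow. The other cyclase genes went with AOC2 in direction. AOC3 fell from 11.3 ± 0.0696 to 4.84 ± 0.543 CPM and AOC4 from 31.1 ± 5.22 to 9.63 ± 0.446 CPM. The authors' FPKM is a level scaled to gene length and library size, without the TMM factors. In FPKM the 4 cyclase genes summed to 58.0 and 53.7 at 2 dpg and to 22.4 and 31.3 at 6 dpg. AOC1 made up 11.8 and 14.6% of that sum at 2 dpg and 36.0 and 40.2% at 6 dpg.

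**Figure D2:**
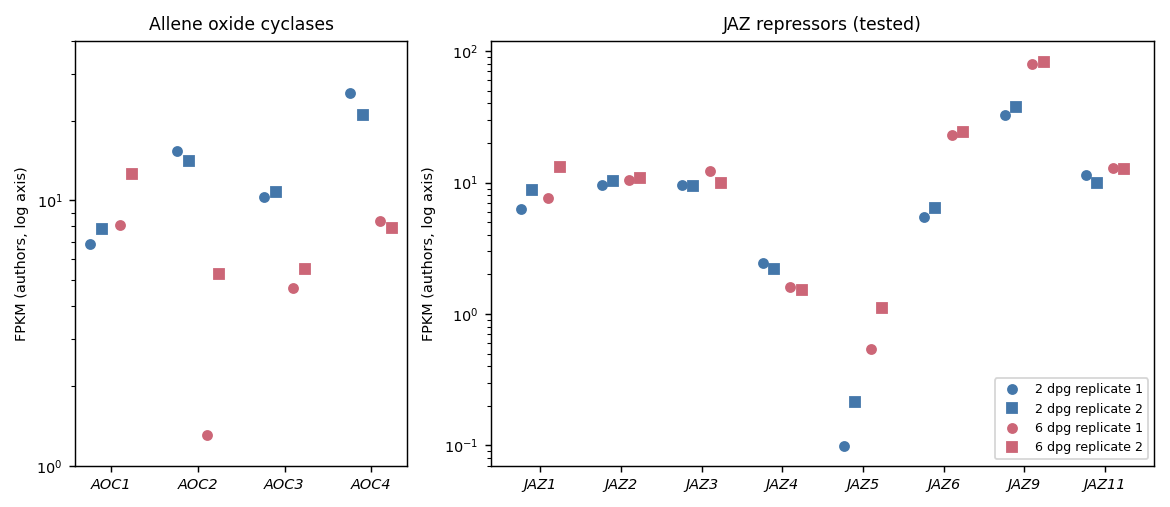
Authors' FPKM (log axis) in each library of the 4 allene oxide cyclase genes and of the 8 tested JAZ genes; blue is 2 dpg, red is 6 dpg, circles replicate 1 and squares replicate 2. AOC2, AOC3, AOC4 and JAZ4 are lower in both 6 dpg libraries. AOC1, JAZ2, JAZ3, JAZ5, JAZ6, JAZ9 and JAZ11 stand above both 2 dpg libraries in both 6 dpg libraries, and JAZ1 overlaps. FPKM lack the TMM factors (0.919 and 0.966 at 2 dpg, 1.06 and 1.07 at 6 dpg). The 6 dpg levels therefore read higher against 2 dpg than in CPM.

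OPR3 (AT2G06050, chr2:2359114-2362302) encodes the reductase that acts on the natural OPDA isomer in peroxisomes. It stood at 18.4 and 15.8 CPM at 2 dpg and at 11.5 and 12.95 CPM at 6 dpg. The 6 dpg libraries lay below both 2 dpg libraries, and OPR3 fell by 0.49 ± 0.14 on the log2 scale (edgeR adjusted p = 0.0168). The call was lost without 2 dpg replicate 1, without 6 dpg replicate 1 and under ribosomal protein scaling (adjusted p from 0.0050 to 0.629 over 12 settings). The cytosolic relatives OPR1 and OPR2, which lie side by side on chromosome 1, fell further. OPR1 went from 183 ± 14.9 to 82 ± 26.1 CPM and OPR2 from 53 ± 11.8 to 15.2 ± 1.76 CPM, at log2 fold changes of -1.16 and -1.81. They share a run of 216 bases, and 17.8% of the stretches of 50 bases in OPR2 occur in OPR1, so reads can be split or lost between them. OPR1 and OPR3 share no run over 15 bases.

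JAR1 (AT2G46370, chr2:19033741-19036659), the enzyme that joins jasmonic acid to isoleucine, stood at 56.7 and 50.7 CPM at 2 dpg and at 35.1 and 37.6 CPM at 6 dpg. The ages were well apart, and the replicates of each age lay close. JAR1 fell by 0.56 ± 0.12 on the log2 scale (edgeR adjusted p = 0.0041), 1.48-fold. The call was lost without 6 dpg replicate 1 (adjusted p = 0.0559) and under ribosomal protein scaling (0.395), in a range of 0.000327 to 0.395 over 12 settings. Of the 6 genes for the shortening of the side chain in the peroxisome, which also serve fat breakdown, 3 fell and none rose (50.0% called, against 56.6% of all tested genes). The call of AIM1 was lost without either 6 dpg library and under ribosomal protein scaling, and that of KAT2 under ribosomal protein scaling (edgeR adjusted p = 0.0532). The largest fall was that of MFP2, a multifunctional beta-oxidation gene, from 129 ± 28 to 65.3 ± 3.78 CPM. The ABC transporter gene PXA1 for import into the peroxisome rose by log2 0.34, from 54.2 ± 2.41 to 68.6 ± 2.28 CPM, but this turned to -0.19 with length-adjusted offsets. That call was also lost without either 6 dpg library.

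COI1 (AT2G39940, chr2:16672493-16675748), the F-box part of the hormone receptor, stood at 40.9 and 37.4 CPM at 2 dpg and at 44.2 and 48.1 CPM at 6 dpg. Both 6 dpg libraries lay above both 2 dpg libraries. The log2 fold change of 0.23 ± 0.12 was not called (95% interval -0.04 to 0.51, edgeR adjusted p = 0.125), although it was under ribosomal protein scaling, at 0.56. Of the other receptor complex genes in the table, the cullin gene CUL1 rose from 138 ± 1.72 to 194 ± 11.7 CPM and the adaptor gene ASK1 fell from 263 ± 40.4 to 188 ± 8.83 CPM. Both calls were lost without 6 dpg replicate 2 and with length-adjusted offsets, and that of ASK1 also without 6 dpg replicate 1 and under ribosomal protein scaling. COI1 is a long gene, and genes of its length had a trend of 0.18 on the log2 scale between the ages.

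MYC2 (AT1G32640, chr1:11798810-11800988), the bHLH activator at the head of the response, stood at 26.8 and 29.8 CPM at 2 dpg and at 27.5 and 31.3 CPM at 6 dpg. Its ages overlapped, with a log2 fold change of 0.05 ± 0.13 and a 95% interval from -0.23 to 0.34 (edgeR adjusted p = 0.737). MYC4, a close partner of MYC2, rose from 11.9 ± 1.58 to 17.7 ± 0.377 CPM. The bHLH repressor genes JAM1 and JAM2, which encode competitors of MYC2, both rose. JAM1 stood at 11.3 ± 0.324 and then 16 ± 1.29 CPM, and JAM2 at 13.9 ± 0.821 and then 23.4 ± 0.587 CPM. The JAM1 call was lost without 6 dpg replicate 2 and with length-adjusted offsets. The third of these repressor genes, JAM3, stood at 25.2 ± 1.19 and 22.4 ± 0.838 CPM and was not called. BHLH14 had 1 to 4 reads per library, and the stamen factor gene MYB21 had no read.

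JAZ1 (AT1G19180, chr1:6622094-6623620), an early repressor gene that jasmonate is known to induce, stood at 9.75 and 12.9 CPM at 2 dpg and at 10.3 and 17.5 CPM at 6 dpg. The ages overlapped, and the log2 fold change of 0.29 ± 0.25 was not called (edgeR adjusted p = 0.333). Without 6 dpg replicate 1 JAZ1 was called higher, at 0.63, and without 6 dpg replicate 2 the value was -0.13 and not called. JAZ3 (AT3G17860, chr3:6119767-6123019) stood at 15.3 and 14.3 CPM at 2 dpg and at 17.0 and 13.6 CPM at 6 dpg. The 2 dpg libraries fell between the 6 dpg libraries, and the log2 fold change was 0.05 ± 0.15 (95% interval -0.29 to 0.39, edgeR adjusted p = 0.793).

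Other repressor genes of the family did change. The table holds 11 JAZ genes, of which 8 were tested. Of these, 3 rose and 1 fell (50.0% called, against 56.6% of all tested genes). JAZ6 rose from 7.92 ± 0.599 to 28.2 ± 0.998 CPM, with a log2 fold change of 1.84 ± 0.13 (edgeR adjusted p = 1.59e-05). JAZ9 rose from 45.2 ± 3.0 to 93 ± 2.30 CPM, with a log2 fold change of 1.04 ± 0.12. JAZ6 and JAZ9 kept their calls in all 12 alternative settings. JAZ5 rose from 3 and 5 reads to 14 and 23 reads, a call lost without 2 dpg replicate 1 or without 6 dpg replicate 2. JAZ4 fell from 3.36 ± 0.346 to 2.01 ± 0.096 CPM, a call lost under DESeq2, ribosomal protein scaling and in 3 of the 4 leave-one-out fits (all but the one without 2 dpg replicate 2). JAZ2 and JAZ11 were not called (log2 fold change -0.07 and 0.09). JAZ7, JAZ8 and JAZ13 were too low to test, at 0 to 12 reads per library. In the authors' FPKM, without the TMM factors, the 11 genes summed to 78.2 and 85.3 at 2 dpg and to 149 and 158 at 6 dpg. JAZ9 made up 41.8 and 44.3% of that sum at 2 dpg and 53.4 and 52.9% at 6 dpg, whereas JAZ1 made up 5.13 to 10.3% in the 4 libraries.

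JAZ repressors act through the adaptor NINJA and the corepressor TPL. All 3 genes of the corepressor and mediator group rose, where 28.3% of all tested genes were called higher. Whether these 3 differ as a group from other genes was not tested. NINJA rose from 38.6 ± 2.78 to 52.2 ± 1.28 CPM, TPL from 184 ± 3.96 to 352 ± 1.29 CPM, and the mediator subunit gene MED25 from 16.5 ± 3.68 to 32.6 ± 0.271 CPM. The NINJA call was lost without either 6 dpg library. Genes of the length of TPL and MED25 had trends of 0.46 and 0.32 on the log2 scale between the ages. The log2 fold change of TPL was 0.94, and 0.47 at the lowest over 12 settings. For MED25 these values were 0.99 and 0.69, and both genes stayed called.

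Of 8 tested turnover genes of the hormone, 4 fell and none rose (50.0% called, against 56.6% of all tested genes). The calls of ILL6 and JOX3 were lost under DESeq2, under ribosomal protein scaling and without 2 dpg replicate 1 or 6 dpg replicate 1. That of ILL6 was also lost without 6 dpg replicate 2, and that of JOX3 without 2 dpg replicate 2 and with length-adjusted offsets. JOX2 and CYP94B3 kept their calls in all 12 settings. JOX2, one of the oxidases that hydroxylate jasmonic acid, fell from 41.5 ± 10.7 to 17.2 ± 0.854 CPM, and CYP94B3, which oxidises the isoleucine conjugate, from 7.81 ± 0.614 to 3.48 ± 1.45 CPM. Among 7 tested response genes 2 rose and 1 fell (42.9% called, against 56.6% of all tested genes). CORI3, a gene of the aminotransferase family, rose from 4 and 3 reads to 11 and 15 reads, a call lost under DESeq2 and in every leave-one-out fit except that without 6 dpg replicate 1. NAC055, a MYC2-regulated factor gene, rose from 1.76 ± 0.0662 to 5.64 ± 0.206 CPM. CLH1, the gene of a chlorophyllase, fell from 44.8 ± 7.61 to 13.4 ± 1.47 CPM. The defensin gene PDF1.2b had no read in any library and the thionin gene THI2.1 had 0 reads at 2 dpg and 1 in each 6 dpg library.

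**Figure D3:**
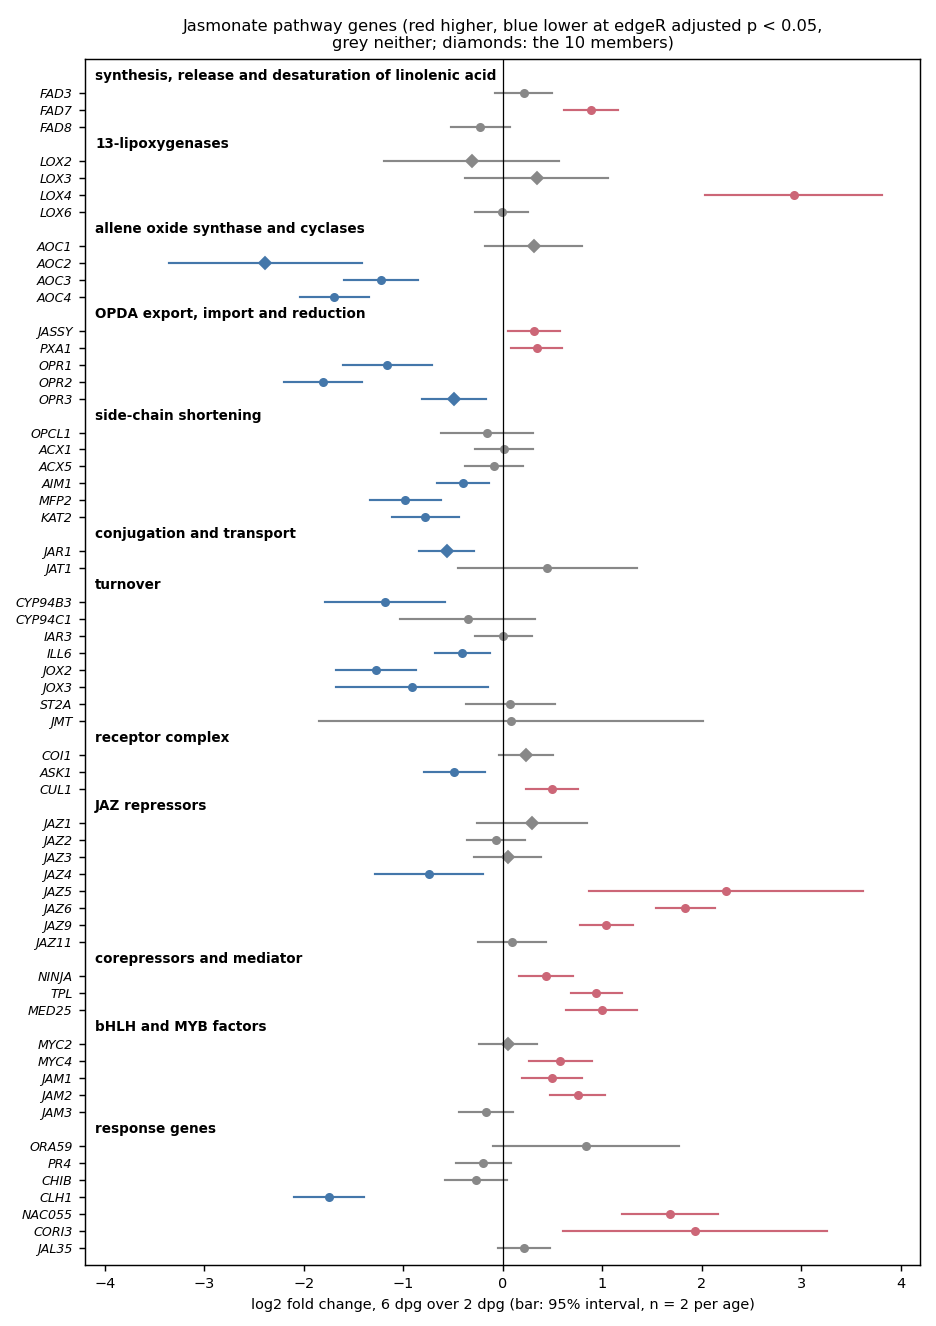
Log2 fold change (6 dpg over 2 dpg) with its 95% interval for the 58 tested genes of the jasmonate pathway, grouped by role; diamonds are the 10 members, red is called higher, blue called lower and grey neither. Cyclase and OPDA reductase genes lie to the left of 0 except AOC1, while the corepressor genes and JAZ5, JAZ6 and JAZ9 lie to the right.

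The pathway list of 85 loci, with the members among them, had 73 in the table and 58 tested. Of the 58, 16 rose and 17 fell (56.9% called, median log2 fold change 0.03), a share close to the 56.6% of all genes. Of the 33 calls, 18 held in every alternative setting, 9 higher and 9 lower. The higher ones were FAD7, LOX4, JAZ6, JAZ9, TPL, MED25, MYC4, JAM2 and NAC055. The lower ones were AOC2, AOC3, AOC4, OPR1, OPR2, MFP2, CYP94B3, JOX2 and CLH1. The share of calls that held in every setting was not counted over all tested genes, so whether 18 of 33 is usual cannot be said.

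Compared across genes per length, in the authors' FPKM, JAR1 was the highest member at 2 dpg (23.7 ± 1.02). COI1 (15.4 ± 0.405) and AOC2 (14.7 ± 0.944) came next and overlapped, followed by MYC2 (12.3 ± 1.36) and OPR3 (11.4 ± 0.825), which also overlapped. JAZ3 came next, then LOX2, JAZ1 and AOC1, where JAZ1 overlapped both its neighbours, and LOX3 was lowest at 0.541 ± 0.0449. At 6 dpg COI1 led at 20.4 ± 1.34, ahead of JAR1 at 18.1 ± 0.99 and MYC2 at 14.3 ± 1.39, with no overlap between them. JAZ3, JAZ1, AOC1, OPR3, LOX2 and AOC2 followed in that order, and each of these overlapped its neighbour. AOC2 was in place 3 of 10 at 2 dpg and in place 9 at 6 dpg. LOX3 was again lowest, at 0.786 ± 0.271. For OPR3, JAR1, JAZ1 and JAZ3 the FPKM imply a shorter gene length than the table lists.

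The 6 dpg libraries differed from each other in several members. Replicate 2 stood above replicate 1 in 9 of 10 members at 6 dpg, against 47.7% of all tested genes. At 2 dpg replicate 2 was the higher in 3 of 10 members, against 50.35% of all tested genes. The ratio of replicate 2 to replicate 1 at 6 dpg was 3.98 for AOC2 and 3.06 for LOX2. Only 0.415% and 0.805% of all tested genes had a larger gap in either direction at that age. JAZ1, LOX3 and AOC1 had ratios of 1.70, 1.62 and 1.54, with larger gaps in 4.71, 5.58 and 7.15% of genes. JAZ3 alone of the members was lower in replicate 2, at 0.797. OPR3, JAR1, COI1 and MYC2 had ratios between 1.07 and 1.14. The labels give nothing that tells these libraries apart, and what lies behind the gap was not tested.

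**Figure D4:**
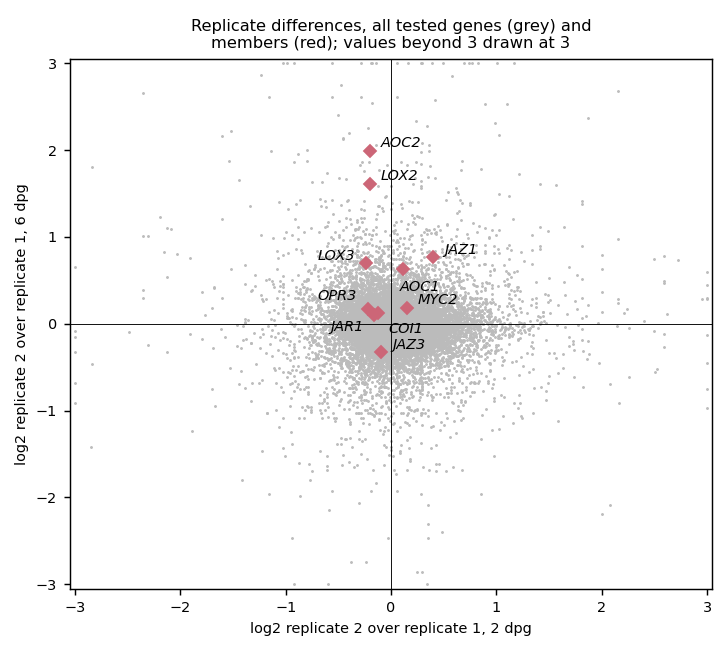
Log2 ratio of replicate 2 to replicate 1 at 2 dpg (horizontal) and at 6 dpg (vertical) for all tested genes (grey) and the 10 members (red diamonds). AOC2 and LOX2 stand far above 0 at 6 dpg (1.99 and 1.61) and near 0 at 2 dpg.

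For AOC2, the called member with the largest change, the genes most like it over the 4 libraries were found by the Euclidean distance of centred log2 CPM among 15082 genes that averaged 20 or more normalized reads. They were LSU3, named for its response to low sulfur, at a distance of 0.308, AT2G23910 at 0.333 and the acid phosphatase gene PAP17 at 0.47. LSU3 had 67 and 50 reads at 2 dpg and 5 and 13 at 6 dpg. PAP17 stood at 22.1 and 20.5 CPM at 2 dpg and at 2.29 and 5.89 CPM at 6 dpg. Like AOC2, each was lowest in 6 dpg replicate 1, a likeness that the choice by distance selects for.

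By adjusted p under 0.05 in the authors' deposited table, AOC2 (1.17e-09), JAR1 (0.00343) and OPR3 (0.0491) were lower at 6 dpg and no other member was called. Across the 22473 genes with a value in the authors' deposited table, 32.8% were called.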

How the data were processed

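Per the labels' protocols, TRIzol extraction of seedling RNA was followed by NEBNext Ultra library preparation, a kit without strand marking. The submitters' processing notes name DESeq 1.18.0, HTSeq 0.6.1, TopHat2 2.0.12, Bowtie2 2.2.3 and CASAVA 1.8 without saying what each did. For the read length, the build and the annotation, the answer is not given in the sources used here. Read counts per gene, not normalized, were deposited together with the authors' FPKM per library and a p-value, raw and adjusted, from the authors' own comparison of the ages. The 4 columns of means over an age were not used. For 99.4% of 21408 coding genes the deposited position and strand fitted TAIR10.1, from which the sequences were read. RefSeq matched 26398 loci.

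The rows held make up 79.9 to 81.0% of each library, so library totals were recovered from count, FPKM and length (66.7 to 67.8% of genes with more than 200 reads gave the same total within 0.01%). A count of 3 corresponds to 0.113 to 0.164 CPM, and counting error only is covered by this floor. The quasi-likelihood test of edgeR 4.0.16 (R 4.3.3) was used for 6 against 2 dpg with TMM factors, filterByExpr at 10 counts and no covariate, and calls were made at a Benjamini-Hochberg adjusted p under 0.05. DESeq2 1.42.0 was the alternative test. The fit was tested on simulated data. The replicates of an age differed beyond sampling noise (chi-square per degree of freedom 16.5 at 2 dpg and 6.01 at 6 dpg). Ratios between replicates were taken with 0.02 CPM added. Fits without 1 library assume that the lone library of an age varies like the others.

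The members, the pathway list and the alternatives were chosen with earlier results of these data known. The text names the 10 members and, per role of the list, the called gene with the largest rise and with the largest fall, genes with no read, and all JAZ, MYC and JAM genes in the table. AOC3, AOC4, OPR1, LOX6, FAD3, FAD8, DAD1, NINJA, TPL, NAC055, CYP94B3, THI2.1, AIM1, KAT2, ILL6, JOX3, JASSY, JAT1 and JMT were added after their values were seen.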

Additional observations from a re-analysis of the deposited data

How the results depend on the processing

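Among the members, 0 were called higher and 3 lower. Leaving out single libraries gave 0 to 2 higher and 1 to 4 lower, with 2 higher and 1 lower without 6 dpg replicate 1; ribosomal protein scaling gave 1 higher and 1 lower. For the pathway list (16 higher, 17 lower) the leave-one-out ranges were 9 to 16 and 10 to 18, with 9 higher without 6 dpg replicate 2 and 10 lower without 6 dpg replicate 1, and ribosomal protein scaling gave 9 lower. For all genes the ranges were 3466 to 4693 higher and 3495 to 4690 lower, against 2129 lower under ribosomal protein scaling. The log2 fold change of PXA1 turned to -0.19 with length-adjusted offsets. Under DESeq2, RLE size factors, no filter, a mean count of 20 or more, library sizes from the rows held, the replicate block and length-adjusted offsets, all 10 members stayed on their side of the threshold. With the replicate block, 0 members were higher and 3 lower. JASSY (edgeR adjusted p = 0.0706) and PXA1 (0.0514) of the list lost their call. Over genes, the replicate difference at 2 dpg and that at 6 dpg correlated at -0.0037. A single difference per age cannot show whether same-numbered libraries were paired. The AOC1 to AOC2 difference was 2.94 with counts per length. FPKM gives the same ratio for these genes by construction, so it is no separate check. With 2 libraries an age, low genes such as LOX3 are measured with wide intervals.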

Other observations

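The tilt between the 6 dpg libraries extended beyond the members. Without the members, 35 of 48 tested genes of the pathway list were higher in 6 dpg replicate 2 than in replicate 1. With the members it was 44 of 58 (75.9%), against 47.7% of all tested genes. A gap over 1 on the log2 scale was found for 4 of the 58, LOX2, AOC2, the transporter gene JAT1 and JMT. JMT had 2 to 13 reads per library and was lower in replicate 2. JAT1, which encodes a jasmonate transporter, stood at 2.91 and 4.57 CPM at 2 dpg and at 2.95 and 7.32 CPM at 6 dpg. Among all tested genes 2.62% had a gap of that size at 6 dpg. These genes were picked after their values were seen, and the values are given without a test.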
